A study of Mus musculus with 12 samples.

Results

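The aminoacyl-tRNA synthetases are the enzymes that join each amino acid to its transfer RNA. The set described here holds 36 of their genes, 20 for cytosolic and 16 for mitochondrial enzymes, out of the 54100 features listed in all 12 count files. Members were taken by a list of symbols, in the older form without the final 1 that newer annotations add, and a final 2 marks the mitochondrial enzymes. Each symbol was matched to 1 Ensembl identifier in GENCODE M21, whose build is mm10. All 36 members were present in all 12 files, and all 36 had enough counts to be tested in each of the 3 comparisons, with 63 counts as the lowest value in any library.

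RNA was measured in 12 mouse libraries, 2 in each of 6 groups, all labelled with the genotype C57BL/6J, from polyA-selected RNA sequenced in pairs of 150-base reads. SSTC3, a small molecule that activates CK1a, a serine and threonine kinase, was compared with its solvent DMSO in cells labelled BMDM (bone marrow-derived macrophages) with a TREX knockout. The SSTC3 libraries carry the names TREX1-KO and TREX2-KO and the DMSO libraries TREX3-KO and TREX4-KO, so no TREX name is shared between the groups and the name and the treatment cannot be told apart. MEF, for mouse embryonic fibroblasts, is the label of the remaining 8 libraries, which compare CK1a overexpression with an overexpression control, and CK1a knockdown with a knockdown control. No dose, time, construct or siRNA sequence is given in the sources used here. Whether replicates came from separate cultures is not stated, so every p-value reflects only how far these libraries lie apart, and that spread may be technical.

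Cytosolic synthetases charge the tRNAs used by cytosolic ribosomes, and 8 of the 20 genes listed here encode subunits of the multi-synthetase complex, which is held together by the scaffold proteins of Aimp1, Aimp2 and Eef1e1. Mitochondrial synthetases are made from nuclear genes and imported, and they charge the tRNAs that read the mitochondrial genome. Gars and Kars serve both compartments from 1 gene each. When amino acids run short or the endoplasmic reticulum is stressed, phosphorylation of the initiation factor eIF2 raises translation of the transcription factor ATF4. ATF4 binds with C/EBP partners to the element TGATGNAA and is known to raise genes for amino acid synthesis, amino acid uptake and mainly the cytosolic synthetases.

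Library totals ran from 16063627 to 19427506 counts, and replicates of a group differed by more than sampling noise (chi-square per degree of freedom 2.29 to 3.61). The files of the overexpression set list 55401 features and the other files 54532. Mitochondrially encoded genes held 0.0% of the counts in the overexpression set and 1.23 to 1.98% in the other libraries. The part of these differences in levels compared between sets was not tested. Csnk1a1, which encodes CK1a, had 172 and 169 CPM (counts scaled by the library total) in the knockdown libraries against 325 and 354 in the knockdown controls, and its log2 fold change was −0.96 ± 0.05 (SE, edgeR adjusted p = 2.88e-27). In the libraries labelled CK1a overexpression it had 229 and 244 CPM against 238 and 235, with adjusted p = 0.901, so the direction of that comparison rests on the label. The libraries labelled BMDM had summed levels of 12 macrophage markers of 10.2 to 13.2 CPM, with Adgre1 and Itgam at 0 in all 4 of them, and of 12 fibroblast markers of 5258 to 6695 CPM. In the overexpression set these sums were 20.8 to 23.3 and 2253 to 2452 CPM, and in the knockdown set 269.5 to 326 CPM, most of it Cd68, and 719 to 944 CPM. Within sets, the fibroblast sum was 5258 and 5353 CPM with SSTC3 against 6695 and 6447 with DMSO, 2253 and 2280 CPM with overexpression against 2452 and 2417, and 719 and 722 CPM with knockdown against 944 and 927 in its controls. The macrophage sum was 323 and 326 CPM with knockdown against 277 and 269.5. The part of these shifts in the results below was not tested. In bulk RNA, fewer cells of a type and less RNA per cell cannot be told apart.

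The promoter windows of RefSeq (build GRCm38.p6), 250 bases before to 50 after each gene's start, hold 27 of the 36 members, 13 cytosolic and 14 mitochondrial. Cars, Hars, Lars, Nars, Rars, Vars, Wars, Hars2 and Pars2 have no entry in the table. The motif TGATGNAA was searched on both strands and is written TTNCATCA when it lies on the other strand. No other motif was searched. It was present for 5 of the 13 cytosolic genes (38.5%), for 0 of the 14 mitochondrial genes, and in 1304 of all 32851 windows of the same 300 bases (3.97%). A match is a description of letters and not a binding site, and no match says only that the letters are not in that window. The 5 matches below, 1 for each of these genes, are not every match found, as Aars has another. Each line gives 28 bases on the gene's strand, 5′ to 3′, with the match in capitals.
Yars, chr4:129189896-129189923, plus strand: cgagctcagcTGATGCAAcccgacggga
Gars, chr6:55037961-55037988, plus strand: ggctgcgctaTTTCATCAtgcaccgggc
Aars, chr8:111033841-111033868, plus strand: gcgggtcactTTTCATCAgagcgctctg
Iars, chr13:49682127-49682154, plus strand: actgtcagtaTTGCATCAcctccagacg
Tars, chr15:11399656-11399683, minus strand: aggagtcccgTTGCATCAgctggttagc
The match of Tars begins 15 bases before the start and that of Gars 30 bases before it. Those shown for Aars, Iars and Yars begin at base 10, 8 and 4 of the transcript. The match of Tars is also shown with the 243 bases that lead up to and include it, since Tars had the highest log2 fold change with SSTC3 of all 36 genes.
Tars, chr15:11399666-11399908, minus strand: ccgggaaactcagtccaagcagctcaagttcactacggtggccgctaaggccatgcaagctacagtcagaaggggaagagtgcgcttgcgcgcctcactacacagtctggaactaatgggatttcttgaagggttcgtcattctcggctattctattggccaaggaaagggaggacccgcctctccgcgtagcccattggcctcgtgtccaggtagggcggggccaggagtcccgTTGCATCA
This stretch has 57.6% G and C.

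SSTC3 was set against DMSO first. The cytosolic synthetases for threonine, cysteine, asparagine and alanine rose, with log2 fold changes of 0.49 to 0.66, while a smaller set of cytosolic genes fell. More mitochondrial synthetases fell than rose. Of the 20 cytosolic genes, 9 were higher and 4 lower with SSTC3, and 7 did not pass. Of all 14151 genes tested, 27.1% were called higher and 26.5% lower, so the share of cytosolic genes called higher (45.0%) was above that of all genes and the share called lower (20%) below it. In either direction 53.6% of all genes were called. Of the 16 mitochondrial genes, 2 were higher (12.5%), 7 lower (43.8%) and 7 did not pass. With library totals as the scaling the cytosolic split was 9 higher and 6 lower and the mitochondrial split 1 higher and 8 lower. The median log2 fold change was 0.07 for the cytosolic genes, −0.26 for the mitochondrial genes and 0.01 for all genes, and with library totals these were 0.01, −0.31 and −0.04.

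**Figure D1:**
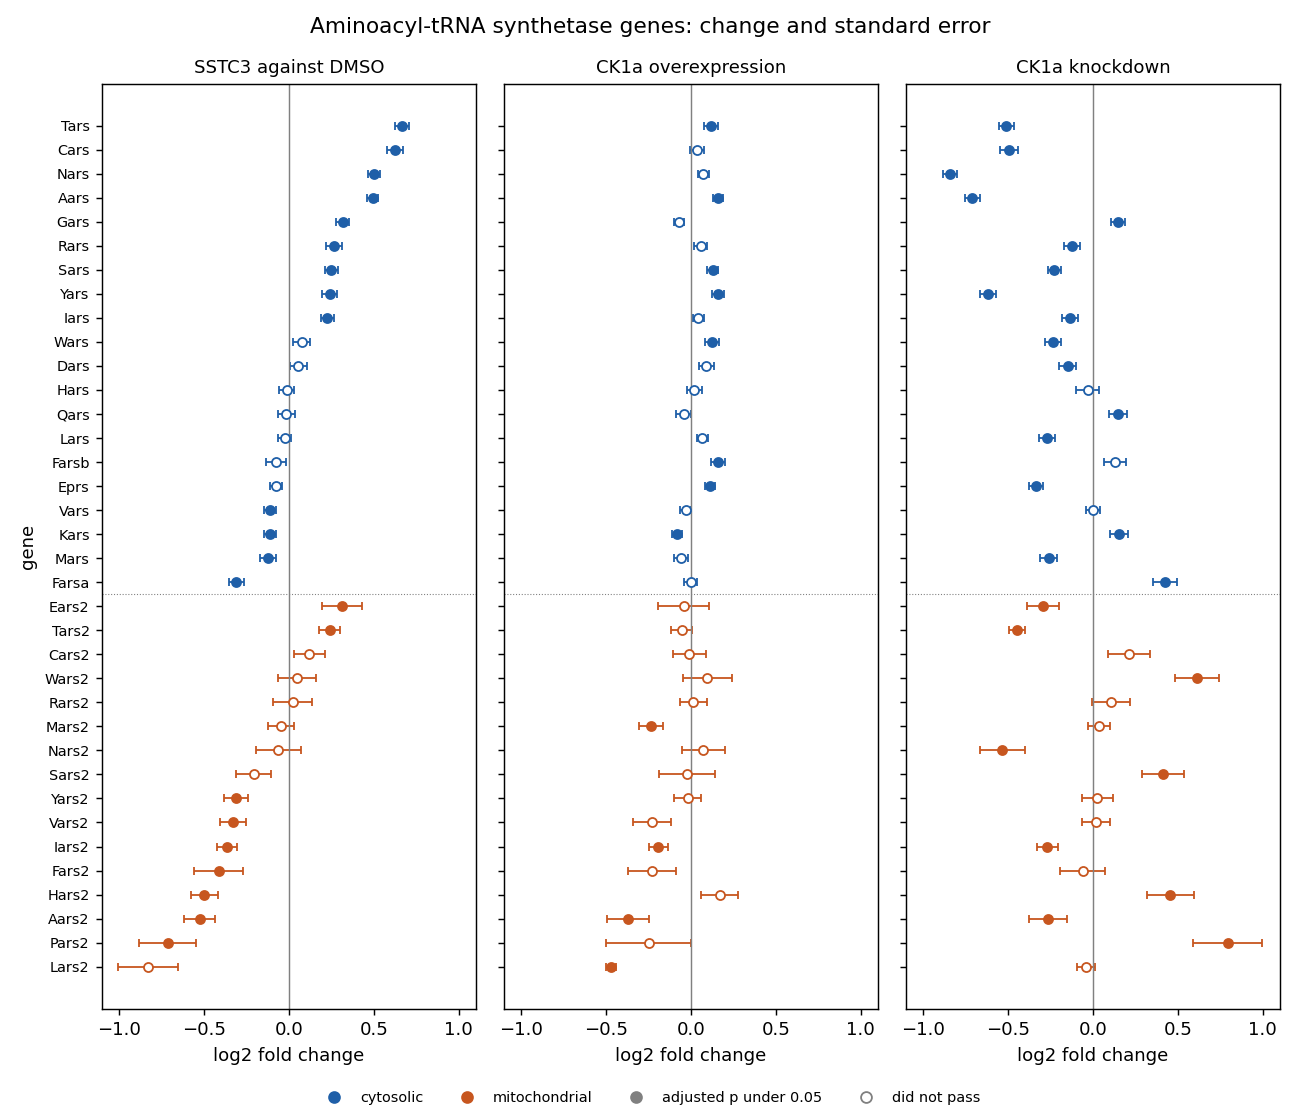
Log2 fold change (x axis, with SE as bars) of each of the 36 genes (y axis) in the 3 comparisons, cytosolic enzymes in blue and mitochondrial enzymes in orange, filled where edgeR's adjusted p was under 0.05. With SSTC3 the cytosolic values run from −0.31 (Farsa) to 0.66 (Tars), and with CK1a knockdown Nars, Aars, Yars, Tars and Cars have the lowest cytosolic values.

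Tars, the threonine enzyme (ENSMUSG00000022241, chromosome 15, 11382301 to 11399665, minus strand), had 338 and 337 CPM in the SSTC3 libraries against 224 and 219 with DMSO. Its log2 fold change was 0.66 ± 0.04 (SE, n = 2 per group, edgeR adjusted p = 1.38e-40). Both SSTC3 libraries lay above both DMSO libraries by far more than replicates differed. Cars, the cysteine enzyme (ENSMUSG00000010755, chromosome 7, 143557230 to 143600090, minus strand), had 162 and 162 CPM against 107 and 111, a change of 0.63 ± 0.05 (adjusted p = 1.78e-27). Nars, the asparagine enzyme (ENSMUSG00000024587, chromosome 18, 64499647 to 64516652, minus strand), had 541 and 503 CPM against 384 and 383, a change of 0.50 ± 0.04 (adjusted p = 1.35e-30). The groups did not overlap in either gene. Aars, the alanine enzyme (ENSMUSG00000031960, chromosome 8, 111033144 to 111057664, plus strand), had 814 and 826 CPM against 615 and 596, a change of 0.49 ± 0.03 (adjusted p = 2.46e-32). Of its exonic bases, 14.3% are shared with Exosc6 on the same strand, which had 0 counts in all 12 libraries. All 1326 exonic bases of Exosc6 lie within those of Aars. How reads shared between genes were counted is not given, so the 0 counts do not show whether Exosc6 was expressed. Gars, which charges glycine in the cytosol and in mitochondria (ENSMUSG00000029777, chromosome 6, 55038007 to 55079500, plus strand), had 374 and 391 CPM against 315 and 324, a change of 0.32 ± 0.04 (adjusted p = 6.92e-14). Again each SSTC3 library was above each DMSO library.

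The other cytosolic genes that rose were Rars, for arginine (0.26 ± 0.05), Sars, for serine (0.25 ± 0.04), Yars, for tyrosine (0.24 ± 0.04), and Iars, for isoleucine (0.23 ± 0.04), with adjusted p from 1.05e-09 to 2.39e-07. None of these 4 genes had a library that crossed into the other group. Such separation of 2 libraries from 2 also occurred in genes that did not pass. With SSTC3 these included Hars (edgeR adjusted p = 0.819) and Qars (edgeR adjusted p = 0.804). Its share among all genes was not counted, so here and in the other comparisons it only describes the libraries. The 5 genes whose promoter windows hold TGATGNAA, Aars, Gars, Iars, Tars and Yars, were all among the 9 that rose, beside 27.1% of all genes tested. Of the other 4, Sars has a window without the letters and Cars, Nars and Rars have no entry. How many of all genes with the letters were called higher was not counted. Gars was called higher with knockdown too, where Aars, Iars, Tars and Yars were called lower. Neither Gars nor Iars passed with overexpression, where Aars, Tars and Yars were called higher.

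Farsa, the catalytic subunit of the phenylalanine enzyme (ENSMUSG00000003808, chromosome 8, 84856989 to 84869257, plus strand), fell, with 181 and 179 CPM against 236 and 227 and a change of −0.31 ± 0.04 (adjusted p = 6.42e-11). Farsb, its partner subunit, had 80.8 and 81.0 CPM against 87.6 and 89.6 and did not pass (−0.07 ± 0.06, adjusted p = 0.283). The difference between the subunits of this enzyme was not tested. Mars, for methionine (−0.13 ± 0.05), Kars, for lysine in both compartments (−0.11 ± 0.04), and Vars, for valine (−0.11 ± 0.03), were lower by small amounts. These 3 calls ended in some fits with 1 library left out, where the changes kept their sign at −0.12 to −0.07. Such fits hold fewer libraries, so a lost call does not show that 1 library carried the change. Kars did not pass without SSTC3 replicate 2 (adjusted p = 0.101) or DMSO replicate 1 (adjusted p = 0.18), Mars without the same libraries (adjusted p = 0.136 and 0.0692), and Vars without SSTC3 replicate 1 (adjusted p = 0.0699). Without SSTC3 replicate 2 or DMSO replicate 1, 2 cytosolic genes were called lower in place of 4. Dars, Eprs, Farsb, Hars, Lars, Qars and Wars did not pass, with log2 fold changes of −0.08 to 0.07. Eprs was called lower with RLE factors (adjusted p = 0.0489), library totals (adjusted p = 0.00107), no filter (adjusted p = 0.0437) and DESeq2 (adjusted p = 0.0389), and Farsb with library totals (adjusted p = 0.0498). Hars, for histidine, had 159 and 151 CPM against 159 and 166, and Qars, for glutamine, 125 and 125 against 133 and 129.

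Among the mitochondrial enzymes, Hars2, for histidine (ENSMUSG00000019143, chromosome 18, 36783008 to 36792562, plus strand), had 29.9 and 35.1 CPM with SSTC3 against 47.8 and 47.6, a change of −0.50 ± 0.08 (adjusted p = 7.65e-09). Hars and Hars2 are head-to-head neighbours that share 7.97% of the exonic bases of Hars and 4.56% of those of Hars2 on opposite strands. The strand setting of the counting is not given in the sources used here, so reads of that stretch cannot be assigned. Iars2, for isoleucine, had 71.2 and 70.3 CPM against 95.2 and 94.4, a change of −0.37 ± 0.06 (adjusted p = 1.21e-08). Of its exonic bases 24.2% are shared with genes on the opposite strand, chiefly Rab3gap2, which had 104 and 98.1 CPM against 82.9 and 87.6. Aars2, for alanine, had 21.4 and 25.4 CPM against 34.4 and 35.6, a change of −0.53 ± 0.09 (adjusted p = 1.33e-07). In all 3 genes both SSTC3 libraries were below both DMSO libraries. Pars2, for proline, is the least abundant of the called genes and had 5.95 and 5.66 CPM against 10.2 and 9.62, a change of −0.72 ± 0.17 (adjusted p = 9.22e-05). Vars2, for valine, had 39.1 and 39.8 CPM against 48.9 and 54.1 (−0.33 ± 0.07, adjusted p = 5.4e-05). Yars2, for tyrosine, had 47.5 and 44.4 CPM against 61.9 and 56.5 (−0.31 ± 0.07, adjusted p = 5.39e-05). These groups did not overlap either.

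Fars2, for phenylalanine, was also lower (−0.42 ± 0.14, edgeR adjusted p = 0.00895), a call that ended with DESeq2 (adjusted p = 0.108). It also ended without SSTC3 replicate 1 or DMSO replicate 1, where the change was −0.40 in each. Tars2, for threonine, was higher, with 78.1 and 77.7 CPM against 70.1 and 66.9 (0.24 ± 0.06, adjusted p = 0.000344), as was Ears2, for glutamate (0.31 ± 0.12, adjusted p = 0.018). The Ears2 call ended with library totals (edgeR adjusted p = 0.0538) and with DESeq2 (adjusted p = 0.238), which left Tars2 as the 1 gene called higher. It also ended without SSTC3 replicate 1, SSTC3 replicate 2 or DMSO replicate 2, where the changes of Ears2 were 0.32, 0.30 and 0.15. Cars2, Mars2, Nars2, Rars2, Sars2 and Wars2 did not pass, with changes of −0.21 to 0.12, though Sars2 was called lower with library totals (adjusted p = 0.0237). Lars2 did not pass either and is described further on. Summed over the library, the cytosolic genes had 6139 and 6119 CPM with SSTC3 against 5743 and 5638 with DMSO. The mitochondrial genes without Lars2 had 456 and 462 CPM against 545 and 530.5. The first sum was 7.70% higher and the second 14.6% lower, and neither pair of groups overlapped, though 2 libraries against 2 cannot reach p under 0.05 in an exact permutation test.

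**Figure D2:**
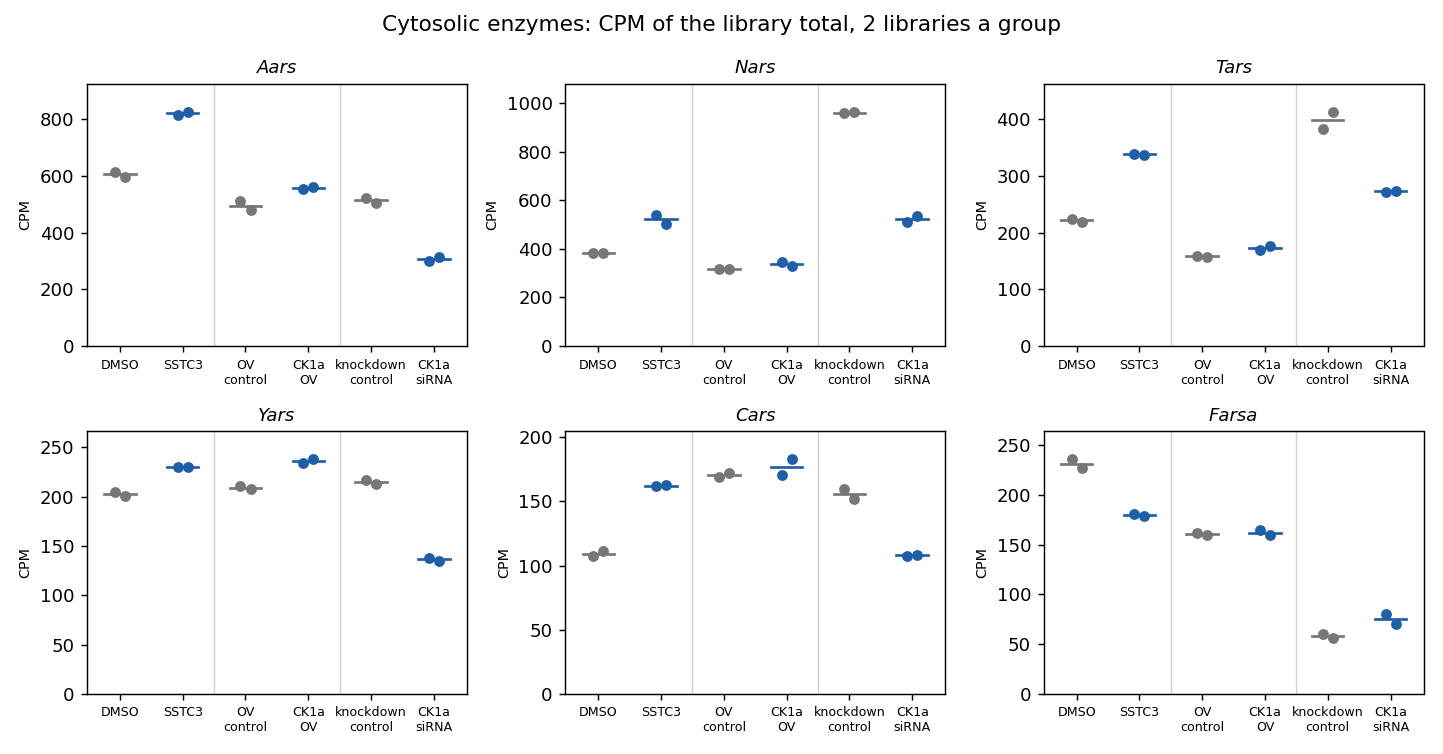
Level of 6 cytosolic synthetase genes in CPM of the library total (y axis, from 0) in each of the 12 libraries (points) with group means (lines), control groups in grey and treated groups in blue. Aars, Nars, Tars and Cars are higher with SSTC3 than with DMSO and lower with CK1a siRNA than in its control, and Farsa has the opposite order in both.

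The libraries labelled CK1a overexpression, in which Csnk1a1 RNA did not differ from the controls, were compared with those controls in cells labelled MEF. Changes were small, at most 0.16 in log2 for any cytosolic gene, and the calls lay on a few cytosolic enzymes, those for alanine, tyrosine and serine first. Of the 20 cytosolic genes, 7 were higher, 1 was lower and 12 did not pass. Among all 13958 genes tested, 5.78% were called higher and 7.57% lower (13.3% in either direction), below the share of cytosolic genes called higher (35.0%). With library totals the split was 7 higher and 0 lower, as the single lower gene, Kars, did not pass (adjusted p = 0.0863). Of the mitochondrial genes 4 were lower (25%), Lars2 among them, and 12 did not pass. None was called higher by edgeR, 0 had an unadjusted p under 0.05 in that direction, and DESeq2 also called 0. The median log2 fold change was 0.06 for the cytosolic, −0.05 for the mitochondrial and 0.00 for all genes.

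Aars had 552 and 562 CPM with overexpression against 510.3 and 479 in the controls, a change of 0.16 ± 0.03 (SE, n = 2 per group, edgeR adjusted p = 8.92e-05). Yars (ENSMUSG00000028811, chromosome 4, 129189760 to 129219607, plus strand) had 234 and 238 CPM against 211 and 208, a change of 0.16 ± 0.04 (adjusted p = 0.00141). Sars had 408 and 397 CPM against 363 and 366, a change of 0.13 ± 0.03 (adjusted p = 0.0026). In each of these 3 genes the groups did not overlap, and leaving out any 1 library did not end the call. Eprs, the joined glutamate and proline enzyme, had 516 and 526 CPM against 476 and 479 (0.11 ± 0.03, adjusted p = 0.00455). Farsb had 148 and 153 CPM against 136 and 131 (0.16 ± 0.04, adjusted p = 0.00773), and Farsa 165 and 159 against 162 and 159.6 (adjusted p = 0.978). Wars, an interferon-inducible gene for the tryptophan enzyme, had 172 and 168 CPM against 156 and 153 (0.12 ± 0.04, adjusted p = 0.0296). Tars had 169 and 177 CPM against 159 and 158 (0.12 ± 0.04, adjusted p = 0.0449). Groups did not overlap in Eprs, Farsb, Wars or Tars, yet each call ended when a library was left out.

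Without OV_control replicate 1, Eprs (adjusted p = 0.0589), Tars (adjusted p = 0.15), Wars (adjusted p = 0.0801), Kars (adjusted p = 0.364) and the mitochondrial genes Aars2 (adjusted p = 0.429), Iars2 (adjusted p = 0.0686) and Mars2 (adjusted p = 0.137) did not pass. Without OV_control replicate 2, Farsb (adjusted p = 0.0975), Tars (adjusted p = 0.174), Wars (adjusted p = 0.183), Kars (adjusted p = 0.0561) and Iars2 (adjusted p = 0.107) did not. Without CK1a_OV replicate 2 the same held for Farsb (adjusted p = 0.0639), Tars (adjusted p = 0.28), Kars (adjusted p = 0.508), Aars2 (adjusted p = 0.11), Iars2 (adjusted p = 0.104) and Mars2 (adjusted p = 0.18). Wars (adjusted p = 0.155) and Aars2 (adjusted p = 0.0761) did not pass without CK1a_OV replicate 1. So 4 cytosolic genes were called higher without either OV_control library, in place of 7. The count of mitochondrial genes called lower went from 4 to 1 without CK1a_OV replicate 2 and to 2 without OV_control replicate 1. DESeq2 called 4 cytosolic genes higher and 1 mitochondrial gene lower.

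Kars had 608 and 573 CPM with overexpression against 629 and 611 (−0.08 ± 0.03, adjusted p = 0.0403). Among the mitochondrial genes, Iars2 had 67.2 and 65.2 CPM against 74.4 and 75.3 (−0.19 ± 0.06, adjusted p = 0.016). Mars2, for methionine, had 47.6 and 44.3 CPM against 54.8 and 52.4 (−0.24 ± 0.07, adjusted p = 0.0146). The treated libraries of all 3 genes lay below their controls. Aars2 had 13.8 and 13.6 CPM against 19.0 and 16.05 (−0.37 ± 0.12, adjusted p = 0.0345). Genes that did not pass included Gars (−0.07 ± 0.03), Hars (0.02 ± 0.04), Qars (−0.04 ± 0.04) and Hars2 (0.17 ± 0.11), and Hars2 had 22.6 and 23.4 CPM against 18.2 and 22.3. Cars, Dars, Iars, Lars, Mars, Nars, Rars and Vars had changes of −0.06 to 0.09. The mitochondrial genes for cysteine, glutamate, phenylalanine, asparagine, proline, arginine, serine, threonine, valine, tryptophan and tyrosine had changes of −0.25 to 0.10. Summed, the cytosolic genes had 5719 and 5704 CPM against 5511 and 5431, or 4.41% more. The mitochondrial genes without Lars2 had 391 and 398 CPM against 422 and 413, or 5.54% less.

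With CK1a knockdown, most cytosolic synthetases fell, led by the enzymes for asparagine, alanine, tyrosine, threonine and cysteine. Of the 20 genes, 13 were lower, 4 were higher and 3 did not pass. All genes tested numbered 14832, of which 26.4% were called lower and 28.3% higher, or 54.7% in either direction, against 65.0% and 20% of the cytosolic genes. With library totals 2 cytosolic genes were higher and 13 lower. Of the mitochondrial genes 5 were lower (31.3%) and 4 higher (25%), shares near those of all genes, and 7 did not pass. The median log2 fold change was −0.19 for the cytosolic, 0.02 for the mitochondrial and −0.01 for all genes. With library totals the mitochondrial median was −0.01, so it had no direction that held across scalings.

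Nars had 511 and 536 CPM with siRNA against 958 and 964 in the controls, a change of −0.84 ± 0.04 (SE, n = 2 per group, edgeR adjusted p = 1.42e-27). Aars had 299.5 and 313 CPM against 523 and 505, a change of −0.71 ± 0.04 (adjusted p = 1.05e-22). Nars and Aars were the 2 members, in any comparison, that also passed a test for a change of at least 1.5-fold (adjusted p = 4.83e-08 and 0.00489). Yars had 138 and 135 CPM against 217 and 213, a change of −0.62 ± 0.05 (adjusted p = 1.71e-17). Tars had 272 and 273 CPM against 382 and 413, a change of −0.51 ± 0.04 (adjusted p = 7.12e-16). Cars had 107 and 108 CPM against 159.6 and 152, a change of −0.49 ± 0.05 (adjusted p = 2.69e-12). In these 5 genes every siRNA library was below every control library, and replicates of a group differed by far less than the groups did. Eprs had 343 and 352 CPM against 437 and 462, a change of −0.34 ± 0.04 (adjusted p = 5.79e-10), and its groups were likewise apart.

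Lars, for leucine (−0.27 ± 0.05), Mars (−0.26 ± 0.05) and Sars (−0.23 ± 0.04) fell, with adjusted p from 1.8e-06 to 1.8e-05. Mars shares 1.99% of its exonic bases with Ddit3 on the opposite strand. Wars had 284 and 253 CPM against 325 and 322 (−0.23 ± 0.05, adjusted p = 1.88e-05), a call that ended without CK1a_siRNA replicate 2 (adjusted p = 0.0745). Dars, for aspartate (−0.15 ± 0.05), Iars (−0.14 ± 0.05) and Rars (−0.13 ± 0.05) fell by less. Without CK1a_siRNA replicate 1 these 3 did not pass (adjusted p = 0.396, 0.218 and 0.178), and without CK1a_siRNA replicate 2 Iars (adjusted p = 0.103) and Rars (adjusted p = 0.23) did not. Farsa rose, with 80.8 and 70.7 CPM against 59.8 and 56.0, a change of 0.42 ± 0.07 (adjusted p = 4.97e-07), and Farsb did not pass (0.13 ± 0.06, adjusted p = 0.0773). Gars had 447 and 447 CPM against 412 and 416 (0.15 ± 0.04), Kars 142 and 144 against 134 and 129 (0.15 ± 0.05) and Qars 151 and 148 against 139 and 138 (0.15 ± 0.05). These 3 were called higher, and none of the calls held without CK1a_siRNA replicate 1 (adjusted p = 0.0572, 0.0861 and 0.162) or replicate 2 (adjusted p = 0.0752, 0.137 and 0.08). Farsa was then the 1 cytosolic gene called higher, in place of 4. Hars (−0.03 ± 0.07) did not pass, and Vars had 389 and 377 CPM against 405 and 379.9 and adjusted p = 0.997.

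Tars2 (ENSMUSG00000028107, chromosome 3, 95739976 to 95760206, minus strand) had 155 and 156 CPM with siRNA against 218 and 217, a change of −0.45 ± 0.05 (adjusted p = 2.11e-12). Iars2 had 81.0 and 84.3 CPM against 97.9 and 106 (−0.27 ± 0.06, adjusted p = 0.000117). Nars2, for asparagine, had 10.8 and 11.8 CPM against 17.4 and 16.3 (−0.53 ± 0.13, adjusted p = 0.000403). All 3 were lower with no overlap. Wars2, for tryptophan, had 18.4 and 19.0 CPM against 14.4 and 10.8 and rose (0.61 ± 0.13, adjusted p = 5.08e-05). Pars2 had 7.31 and 7.94 CPM against 5.54 and 3.53 and rose (0.79 ± 0.20, adjusted p = 0.000663), on 63 to 151 counts a library. Sars2, for serine, had 18.2 and 17.4 CPM against 13.9 and 13.5 and rose (0.41 ± 0.12, adjusted p = 0.0036). The siRNA libraries were above the controls in each of these. Hars2 had 14.9 and 16.7 CPM against 13.6 and 10.1 and was called higher (0.46 ± 0.14), a call that ended without CK1a_siRNA replicate 2 (adjusted p = 0.0725) or knockdown_control replicate 2 (adjusted p = 0.165). Aars2 (−0.27 ± 0.11) and Ears2 (−0.30 ± 0.09) were called lower. Aars2 did not pass without CK1a_siRNA replicate 2 (adjusted p = 0.47) or knockdown_control replicate 1 (adjusted p = 0.393), nor Ears2 without CK1a_siRNA replicate 1 (adjusted p = 0.0849) or knockdown_control replicate 2 (adjusted p = 0.218). Cars2, Fars2, Lars2, Mars2, Rars2, Vars2 and Yars2 did not pass, with changes of −0.06 to 0.21. Summed, the cytosolic genes had 4835 and 4875 CPM against 6136 and 6113 in the controls, or 20.7% less. The mitochondrial genes without Lars2 had 558 and 549 CPM against 636 and 632, or 12.7% less.

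**Figure D3:**
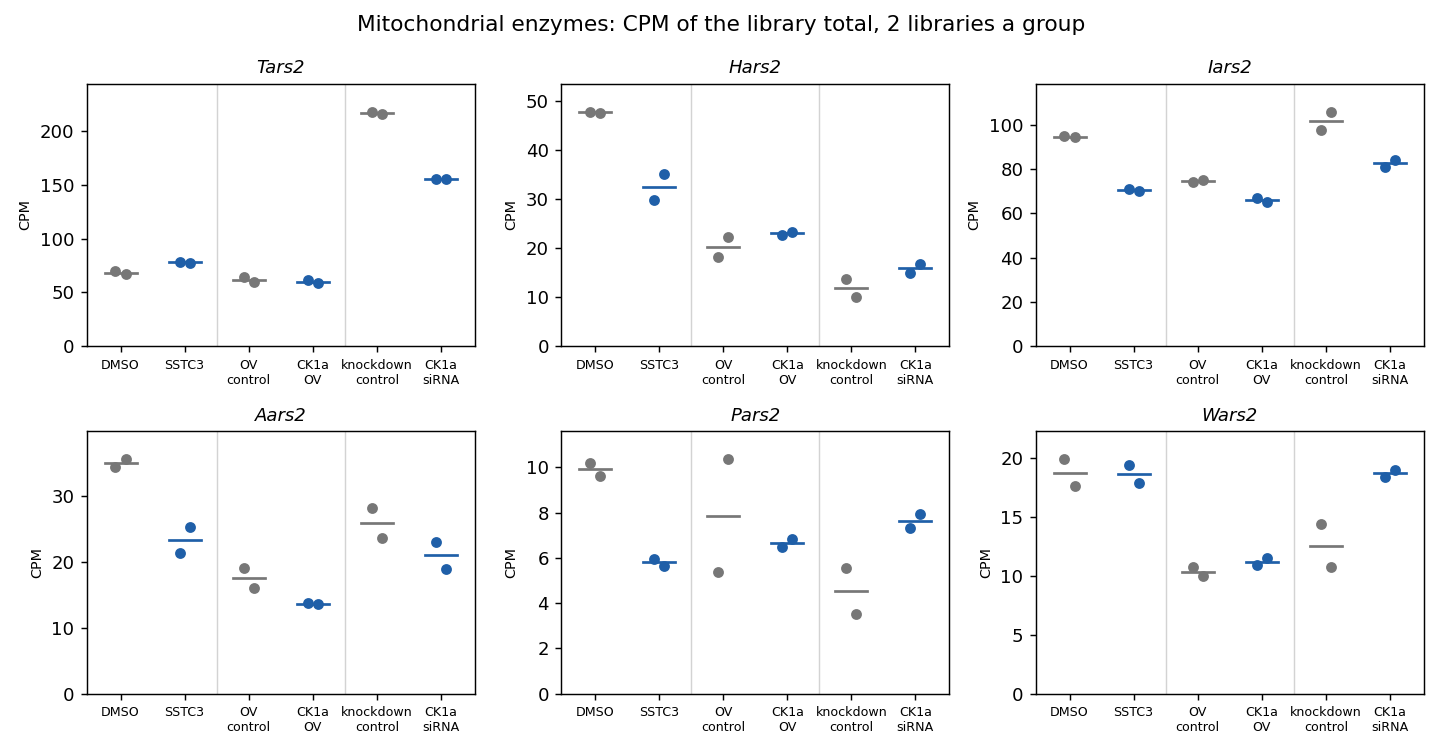
Level of 6 mitochondrial synthetase genes in CPM of the library total (y axis, from 0) in each of the 12 libraries (points) with group means (lines), control groups in grey and treated groups in blue. Iars2 and Aars2 are lower in the treated group of all 3 comparisons, and Hars2 and Pars2 are lower with SSTC3 and higher with CK1a siRNA than in the matching controls.

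SSTC3 against DMSO, overexpression against its control and knockdown against its control share no library, so the calls can be set side by side. Of the 9 cytosolic genes higher with SSTC3, 8 (88.9%) were lower with knockdown, which is 61.5% of the 13 lower there: Aars, Cars, Iars, Nars, Rars, Sars, Tars and Yars. The exception was Gars, called higher in both. Of all genes called higher with SSTC3, 35.6% were lower with knockdown, or 37.3% of those lower there. Of the 7 cytosolic genes higher with overexpression, 6 (85.7%) were lower with knockdown, or 46.2% of those 13, namely Aars, Eprs, Sars, Tars, Wars and Yars. Over all genes these shares were 32.0% and 7.68%. Aars, Sars, Tars and Yars were higher with SSTC3 and with overexpression and lower with knockdown. They were 44.4% of the cytosolic genes higher with SSTC3 and 57.1% of those higher with overexpression. Over all genes these shares were 10.1% and 43.9%. No share of all genes was counted for calls in all 3 comparisons. Farsa and Kars, 50% of the 4 cytosolic genes lower with SSTC3, were higher with knockdown, against 40.1% of all genes lower with SSTC3. Mars (25%) was lower in both, against 22.6% of all genes. Among the mitochondrial genes, Tars2 and Ears2, the 2 called higher with SSTC3, were lower with knockdown, against 35.6% of all genes called higher with SSTC3. Of the 7 called lower with SSTC3, Hars2 and Pars2 (28.6%) were higher with knockdown, below the 40.1% of all genes. Aars2 and Iars2 were called lower in all 3 comparisons. They too were 28.6% of those 7. Of all genes lower with SSTC3, 22.6% were also lower with knockdown and 8.68% with overexpression.

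Across the 20 cytosolic genes, the log2 fold changes with SSTC3 and with knockdown had Pearson's r = −0.71 and Spearman's rho = −0.56, and 14 of 20 had opposite signs, against 54.0% of all genes tested in both. Overexpression and knockdown had r = −0.56 and rho = −0.62, with 17 of 20 opposite in sign against 48.3% of all genes, and SSTC3 and overexpression r = 0.37 and rho = 0.40. Across the 15 mitochondrial genes without Lars2 these were r = −0.36 and rho = −0.23, r = 0.17 and rho = 0.20, and r = 0.44 and rho = 0.41. Genes are not independent replicates, so no p is given. The effects themselves differed between SSTC3 and knockdown, tested as a contrast in a fit of all 12 libraries, and among the cytosolic genes most for Nars (1.37 ± 0.05, SE, adjusted p = 4.91e-40), Aars (1.23 ± 0.05, adjusted p = 5.81e-37), Tars (1.21 ± 0.06, adjusted p = 2.95e-33) and Cars (1.15 ± 0.07, adjusted p = 3.12e-27). Farsa had a difference of −0.70 ± 0.07 (adjusted p = 4.5e-14). Of the mitochondrial genes, Tars2 had a difference of 0.72 ± 0.07 (adjusted p = 2.71e-14), Hars2 of −0.93 ± 0.16 (adjusted p = 5.73e-07) and Pars2 of −1.48 ± 0.30 (adjusted p = 3.29e-05). Among all 17105 genes tested, 45.1% differed between these 2 effects. Between SSTC3 and overexpression 32.7% of all genes differed, and 10 of the 20 cytosolic genes did, led by Cars (0.59 ± 0.07). Between overexpression and knockdown 35.1% differed, and 16 of the 20 cytosolic genes did, led by Nars (0.95 ± 0.05).

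**Figure D4:**
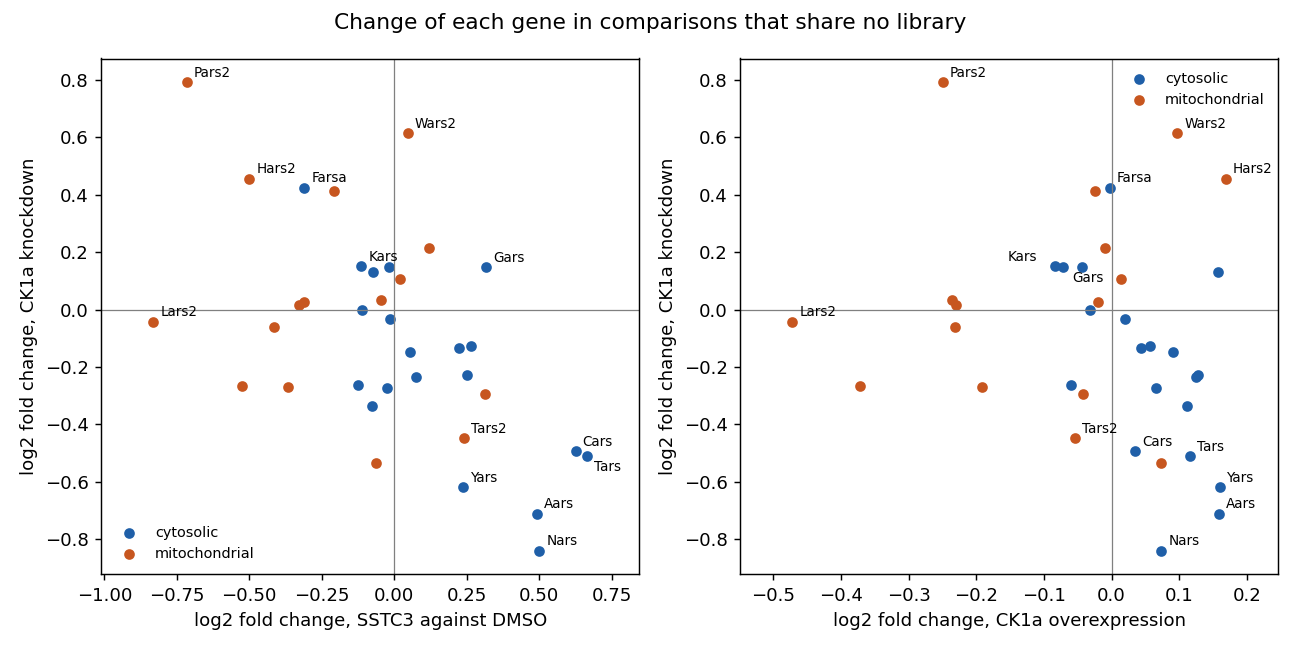
Log2 fold change of each of the 36 genes with CK1a knockdown (y axis) against that with SSTC3 (left, x axis) or CK1a overexpression (right, x axis), cytosolic enzymes in blue and mitochondrial enzymes in orange. Nars, Aars, Yars, Tars and Cars lie at the lower right of both panels, and Pars2 lies at the upper left of both.

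A cytosolic and a mitochondrial enzyme exist as separate single genes for 13 amino acids, and these pairs compare the compartments at the same amino acid. With SSTC3 the cytosolic log2 fold change was above the mitochondrial one in 12 of the 13 pairs, all but methionine, by a median of 0.48. For alanine the difference was 1.02, between 0.49 for Aars and −0.53 for Aars2. With overexpression it was above in 11 of 13, all but histidine and asparagine, by a median of 0.17. With knockdown it was above in 1 pair, isoleucine, and below in 12, with a median difference of −0.31. Without the leucine pair, which holds Lars2, the counts were 11, 10 and 1 of 12 and the medians 0.47, 0.16 and −0.38. The threonine pair moved together, as Tars and Tars2 were both higher with SSTC3 and both lower with knockdown. The ratio of the summed cytosolic to the summed mitochondrial level without Lars2 was 13.5 and 13.2 with SSTC3 against 10.5 and 10.6 with DMSO. It was 14.6 and 14.3 with overexpression against 13.1 and 13.2, and 8.67 and 8.88 with siRNA against 9.65 and 9.67.

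Within the cytosolic set, the 8 genes of the multi-synthetase complex and the 12 outside it were counted apart, beside 27.1% of all genes called higher and 26.5% lower with SSTC3 and 28.3% and 26.4% with knockdown. With SSTC3, 2 of the 8 were higher and 2 lower, shares near those of all genes, with a median log2 fold change of −0.02, against 7 higher and 2 lower of the 12, with a median of 0.24. With knockdown, 6 of the 8 were lower and 2 higher (median −0.14), against 7 lower and 2 higher of the 12 (median −0.23). With library totals none of the 8 was called higher with knockdown. With overexpression 1 of the 8 and 6 of the 12 were higher, beside 5.78% of all genes. Synthetases fall into 2 structural classes by the fold of their catalytic domain. Of the 9 class I genes 4 were higher and 2 lower with SSTC3, and of the 10 class II genes 5 and 2. With knockdown 7 of the 9 and 5 of the 10 were lower. Differences between these subsets were not tested. The scaffold genes Aimp1 (−0.03 ± 0.06), Aimp2 (−0.07 ± 0.07) and Eef1e1 (0.08 ± 0.07) did not pass with SSTC3 in edgeR, 0 of the 3 had an unadjusted p under 0.05, and DESeq2 called 0. With overexpression Eef1e1 rose (0.25 ± 0.06, adjusted p = 0.00447). With knockdown Aimp2 (0.55 ± 0.07, adjusted p = 1.35e-10) and Eef1e1 (0.18 ± 0.06, adjusted p = 0.0136) rose.

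Levels were compared between genes per length, as RPKM (CPM per kilobase of summed exon length). The median of the cytosolic genes was 33.5 to 57.1 RPKM over the 6 groups, and that of the mitochondrial genes without Lars2 3.51 to 6.74. The ratio of the medians was lowest in the siRNA group (6.24) and highest with overexpression (16.3). Gars was the highest cytosolic gene with SSTC3 (123 RPKM), with overexpression (135) and in its controls (141). Vars led with DMSO (132), Sars with siRNA (145) and Nars in the knockdown controls (221). Nars had 219.9 and 221 RPKM in the knockdown controls against 117 and 123 with siRNA, so it was not the highest gene there. The lowest cytosolic gene was Qars with SSTC3 (19.0 RPKM), with overexpression (21.9) and in its controls (22.4), Cars with DMSO (16.6) and siRNA (16.4), and Farsa in the knockdown controls (12.8). The highest mitochondrial gene other than Lars2 was Yars2 with SSTC3 (14.6) and DMSO (18.8), Rars2 in the overexpression set (13.2 and 12.9) and Tars2 in the knockdown set (22.4 and 31.4). The compartments thus overlapped per length with DMSO and in both groups of the knockdown set.

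Lars2, the mitochondrial leucine enzyme (ENSMUSG00000035202, chromosome 9, 123366927 to 123462666, plus strand), is reported as uncertain. It had 1187 and 1337 CPM with SSTC3 against 2069.8 and 2592 with DMSO, 282 and 283 with overexpression against 392 and 384, and 1324 and 1293 with siRNA against 1275 and 1486. It made up 72.2 to 83.0% of the mitochondrial sum in the set labelled BMDM, 41.6 to 48.2% in the overexpression set and 66.7 to 70.4% in the knockdown set. Its log2 fold change was −0.83 ± 0.18 with SSTC3 (adjusted p = 0.0604), −0.47 ± 0.03 with overexpression (adjusted p = 3.55e-17) and −0.04 ± 0.05 with knockdown (adjusted p = 0.528). The DMSO libraries differed more from each other than those of any other group, and the SSTC3 change passed without DMSO replicate 1 (−0.99) or replicate 2 (−0.66). With knockdown the sign turned on 1 library, as the change was −0.15 without knockdown_control replicate 1 and 0.07 without replicate 2, each past the threshold. With all 12 libraries fitted together the overexpression call ended (adjusted p = 0.101) and the SSTC3 change passed (adjusted p = 0.00157), as it did with DESeq2 (adjusted p = 2.4e-05) and with the replicate block (adjusted p = 4.11e-83). Over the 12 libraries, log2 CPM of Lars2 followed that of Gm23935, annotated as a miRNA of 57 bases, with r = 0.998, and that of Gm15564, annotated as an antisense RNA, with r = 0.990. Both were chosen after their values were seen. For mt-Rnr2, annotated as a mitochondrial ribosomal RNA, r with Lars2 was −0.44 over the 8 libraries outside the overexpression set. In the overexpression set mt-Rnr2 had 0 counts. Gm23935 had 2219 and 2456 CPM with SSTC3 against 4247 and 5486 with DMSO, and 369 and 375 with overexpression against 578 and 502. The Lars2 transcript of 3894 bases shares 71 of 72 bases with the transcript of Gm15564, at bases 3278 to 3349. The part of that stretch in the counts was not tested.

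**Figure D5:**
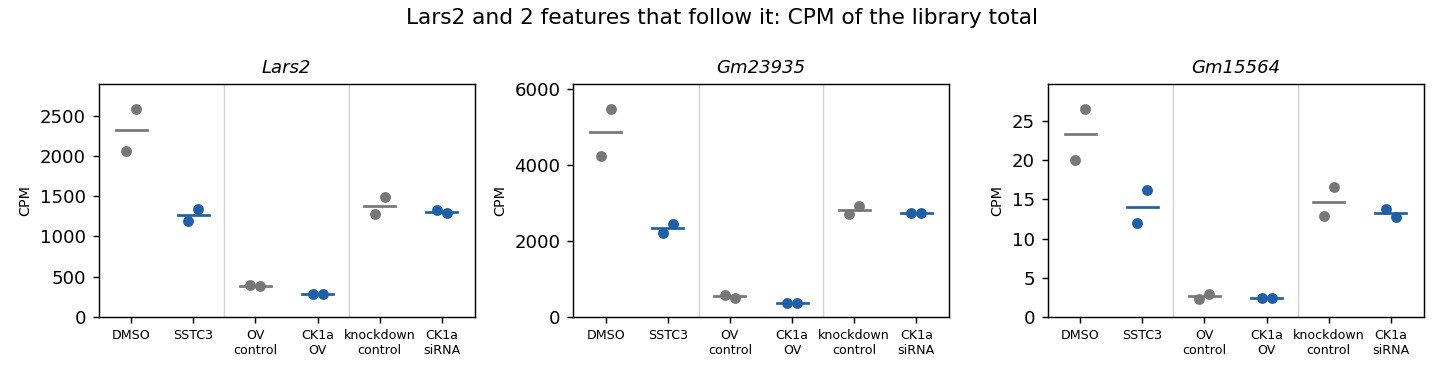
CPM of the library total (y axis, from 0) of Lars2 and of Gm23935 and Gm15564 in each of the 12 libraries (points) with group means (lines), control groups in grey and treated groups in blue. All 3 features have their highest values with DMSO and their lowest values in the overexpression set, whose files list 55401 features against 54532 in the others.

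Genes of the pathway around ATF4 were read from lists. Atf4 had 675 and 672 CPM with SSTC3 against 403 and 399 (0.80 ± 0.04, adjusted p = 3.25e-60), 388 and 374 with overexpression against 341 and 355 (0.12 ± 0.03, adjusted p = 0.00855) and 439 and 426 with siRNA against 556 and 568 (−0.34 ± 0.04, adjusted p = 1.22e-10). Its transcript thus rose, rose and fell. The list counts can be read against all genes, of which 27.1% were called higher and 26.5% lower with SSTC3, 5.78% and 7.57% with overexpression, and 28.3% and 26.4% with knockdown. Of 14 genes listed as ATF4 and its stress targets, 12 were higher and 1 lower with SSTC3 (median log2 fold change 1.24). With overexpression 7 of 14 were higher (median 0.14), and with knockdown 9 of 13 tested were lower and 1 higher (median −0.34). Trib3, a pseudokinase gene induced in this response, had changes of 1.42, 0.42 and −1.72, all past the threshold. Ddit3, which encodes the transcription factor CHOP, had 2.35, 0.23 and −1.89, all past the threshold too. Chac1, a glutathione-degrading enzyme, had 2.38 and −2.85 with SSTC3 and knockdown, and with overexpression it did not pass (0.02 ± 0.08). Sesn2, a regulator of amino acid signalling, had 2.35 and −0.998 in the same comparisons and did not pass with overexpression (−0.10 ± 0.05). Atf3, a stress-induced transcription factor gene, rose with SSTC3 (5.97) and overexpression (0.42) and did not pass with knockdown (−0.15 ± 0.10).

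Of 21 genes of amino acid synthesis and uptake, 16 were higher with SSTC3 (median 0.56), with the smallest adjusted p for the transporter genes Slc3a2 (1.18 ± 0.04) and Slc7a1 (0.92 ± 0.04). With overexpression 12 were higher and 1, Phgdh of serine synthesis (−0.10 ± 0.03), lower (median 0.11). With knockdown 14 of 20 tested were lower and 3 higher (median −0.35). Asns, which makes asparagine, the amino acid that Nars uses, rose with SSTC3 (0.89 ± 0.05) and overexpression (0.24 ± 0.04). With knockdown it had 268 and 277 CPM against 265 and 281 and did not pass (0.03 ± 0.05, adjusted p = 0.558), where Nars fell by 0.84 on the log2 scale. Slc7a11, the cystine transporter gene, rose in all 3 comparisons (1.25, 0.52 and 0.89), while Cars, which charges cysteine, rose with SSTC3 and fell with knockdown. Slc7a11 was chosen after its values were seen.

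Partners of the mitochondrial synthetases were counted in the same way, beside the same shares of all genes (27.1% higher and 26.5% lower with SSTC3, 28.3% and 26.4% with knockdown). Of 13 mitochondrial charging and translation factors, 4 were lower and 1 higher with SSTC3 (median −0.12), with Mtfmt, which formylates the initiator tRNA, at −0.77 ± 0.15 and Qrsl1, a subunit of the enzyme that makes glutaminyl-tRNA, at −0.53 ± 0.12. With overexpression none of the 13 passed in edgeR, 1 in each direction had an unadjusted p under 0.05, and DESeq2 called 0. With knockdown 4 were higher and 1 lower (median 0.14). Of 5 cytosolic elongation factor genes, 4 were higher with SSTC3, and 3 were higher and 1 lower with knockdown. All 5 were lower with overexpression, where 7.57% of all genes were called lower. Of 12 genes of eIF2, its exchange factor and its kinases, 4 were higher and 5 lower with SSTC3, and 4 were higher and 4 lower with knockdown. The kinase genes Eif2ak2, which is interferon-inducible, and Eif2ak3, which acts in endoplasmic reticulum stress, had changes of 2.91 ± 0.08 and −1.49 ± 0.07 with knockdown. With overexpression none of the 12 passed in edgeR, 1 had an unadjusted p under 0.05, lower, and DESeq2 called 0.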

How the data were processed

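Gene counts of 12 mouse RNA-seq libraries, 2 in each of 6 groups, were used as the authors deposited them. Reads were aligned with HISAT2 and counted with featureCounts on mm10, per the submitters' processing notes. For versions, strand setting and annotation, the sources used here give nothing. Library totals were 16063627 to 19427506 counts. Ensembl identifiers were named with GENCODE M21. Members and lists were chosen with earlier results of these data known.

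Each comparison was fitted on its own 4 libraries with edgeR 4.0.16 in R 4.3.3 (filterByExpr, TMM factors, robust quasi-likelihood F test), and p-values were adjusted over all genes tested by Benjamini-Hochberg, with 0.05 as the threshold. Differences between effects were contrasts in a fit of all 12 libraries. The standard error is the size of the log2 fold change divided by the square root of F. With 2 residual degrees of freedom, the spread was moderated across genes. On simulated counts the same steps were tested before use.

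All 36 members were accounted for. In each comparison and compartment, up to 6 called members with the smallest adjusted p were given in every library. Gars, Kars, Wars, Qars, Farsa, Farsb, Hars, Hars2, Lars2, Atf4, Asns, Trib3, Chac1, Ddit3, Atf3, Sesn2, Aimp1, Aimp2, Eef1e1 and Csnk1a1 were named in addition, and other lists were given as counts with up to 4 members of smallest adjusted p or, for counts of 5 or fewer, by name. Alternatives were RLE factors, library totals, no filter on low counts, a filter of 1 CPM in 2 libraries, DESeq2 1.42.0, a fit of all 12 libraries, the replicate number as a block, a test against 1.5-fold, and each library left out. Library sums were also computed on TMM-scaled library sizes, and without Lars2, which was added after seeing the data. One promoter sequence is not reported here.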

Additional observations from a re-analysis of the deposited data

Results flagged for a closer look

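The effects of the 3 comparisons on the synthetase genes differed from each other by a test of the difference itself, as contrasts in 1 edgeR fit of all 12 libraries with Benjamini-Hochberg adjustment. Between SSTC3 and knockdown, 14 cytosolic genes had a higher effect with SSTC3 and 2, Farsa and Kars, a lower one. Of the mitochondrial genes 3 were higher (Tars2, Ears2 and Nars2) and 7 lower, with Pars2, Hars2 and Lars2 furthest apart. Between SSTC3 and overexpression, 7 cytosolic genes were higher with SSTC3, led by Cars (0.59), Tars (0.54) and Nars (0.42), and 3 lower (Farsa, Farsb and Eprs). Of the mitochondrial genes 1, Tars2, was higher and 2, Hars2 and Yars2, were lower. Between overexpression and knockdown, 13 cytosolic genes were higher with overexpression, led by Nars (0.95), Aars (0.90) and Yars (0.81), and 3 lower (Farsa, Kars and Gars). Of the mitochondrial genes 2 were higher (Nars2 and Tars2) and 3 lower (Pars2, Wars2 and Mars2). Of all 17105 genes tested, 45.1%, 32.7% and 35.1% differed in these contrasts.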

How the results depend on the processing

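Of the 60 calls of a member in a comparison, 0 changed sign under the alternatives run, the 1.5-fold test apart. Of the 48 member values that did not pass, 22 changed sign, Hars in each comparison and Pars2 with overexpression among them. In the test against 1.5-fold, 2 cytosolic genes were lower with knockdown and every other count was 0. With DESeq2, 1 mitochondrial gene was higher with SSTC3. With overexpression it called 4 cytosolic genes higher, 0 cytosolic genes lower and 1 mitochondrial gene lower. With knockdown it called 2 cytosolic and 2 mitochondrial genes higher and 3 mitochondrial genes lower. Cytosolic genes called lower there were 10 in place of 13, as Dars, Iars and Rars did not pass (DESeq2 adjusted p = 0.11, 0.0818 and 0.14). Kars, Qars, Aars2, Ears2 and Hars2 also lost their knockdown calls with DESeq2. With library totals, 1 mitochondrial gene was higher with SSTC3, 0 cytosolic genes lower with overexpression and 2 cytosolic genes higher with knockdown, and 5 cytosolic genes had a lower effect with SSTC3 than with knockdown, and 5 than with overexpression. With all 12 libraries fitted together, 3 cytosolic genes were higher and 0 lower with overexpression. Without a filter on low counts, 0 cytosolic genes were lower there. Summed cytosolic levels on TMM-scaled library sizes had ratios of 1.105 with SSTC3 and 0.823 with knockdown. Mitochondrial sums with Lars2 had ratios of 0.600, 0.840 and 0.924, and without it 0.854, 0.945 and 0.873.

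With 1 library left out, where the lone library of a group is assumed to vary like the others, the counts ranged as follows. With SSTC3, 9 to 9 cytosolic genes were higher and 2 to 4 lower, and 1 to 2 mitochondrial genes higher and 6 to 9 lower. With overexpression these were 4 to 6, 0 to 1, 0 to 0 and 1 to 4, and with knockdown 1 to 4, 10 to 13, 3 to 4 and 4 to 5. For differences between effects they were 12 to 14, 2 to 3, 2 to 3 and 5 to 7 between SSTC3 and knockdown, 5 to 7, 3 to 3, 0 to 2 and 1 to 2 between SSTC3 and overexpression, and 13 to 13, 2 to 3, 1 to 2 and 0 to 4 between overexpression and knockdown. Calls gained by leaving out a library included Sars2 with SSTC3 (adjusted p = 0.0309) and Nars, Pars2 and Vars2 with overexpression (adjusted p = 0.0302, 0.029 and 0.0432). Sars2 lost its knockdown call with DESeq2 (adjusted p = 0.0634).

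Replicate numbers did not pair the libraries, as same-numbered libraries had correlations of −0.0156, −0.00962 and 0.00501 in their deviations. With the replicate block, 0 cytosolic genes were lower and 6 higher with overexpression, where Tars did not pass (adjusted p = 0.0532), and 8 mitochondrial genes were lower with SSTC3. Standard errors of the log2 fold change reached 0.25 for the mitochondrial genes (Pars2, overexpression) and 0.07 for the cytosolic genes (Farsa, knockdown).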
